A study of Mus musculus with 11 samples.

Results

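miR-191 and miR-425 are made from neighbouring hairpins of a single locus and are found in many tissues. miR-192, miR-194 and miR-215 come from a pair of clusters that arose by duplication. They are best known from liver, gut and kidney, and as miRNAs that p53 can induce and that restrain the cell cycle. A miRNA hairpin can give a mature form from its 5p arm and from its 3p arm, of which Argonaute usually keeps the first or the second in large excess, and bases 2 to 8 of the mature form, the seed, pair with target mRNAs. The members were all entries of the small RNA tables whose names carry the stem miR-191, miR-425, miR-192, miR-194 or miR-215, on any arm, and there were 11 of them among 1096 mature miRNAs. Of these, 4 belonged to miR-191 and miR-425 and 7 to miR-192, miR-194 and miR-215.

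The miRNAs were measured in cultured spermatogonial progenitor cells (SPCs), the germ cells that sustain sperm production. The cells were taken from mouse testis as Thy1-positive cells and grown on inactivated STO feeder cells, a line of mouse embryonic fibroblasts. The control cells carried the lentiviral control vector (shVector, genotype label Mov10 Vector), and the other cells carried an shRNA (shMov10, genotype label Mov10 knockdown) against *Mov10*, which encodes an RNA helicase. For both groups the labels give the strain C57BL/6 and postnatal day 6, whereas the study's methods describe B6;129S-Gt (Rosa) 26Sor/J mice for the cultures. There was 1 library per group. The methods speak of triplicate samples and do not say whether these were pooled, so the values carry no replicate error and no difference was set against the variation between cultures. The shVector library had 9628835 reads on miRNAs and the shMov10 library 2794593. Levels are given in TPM, in which each library is scaled to 1000000 reads by its own total (10518277 for shVector and 3194363 for shMov10) and length is not corrected for. A single read was therefore worth 0.0951 TPM in shVector SPCs and 0.313 TPM in shMov10 SPCs. These libraries hold no mRNA, so the level of *Mov10* itself was not measured in them.

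Of the 11 members, 7 were above 1.5 TPM, and each of the 7 was so in both libraries. miR-191-5p and miR-192-5p were lower in the shMov10 library, whereas miR-425-5p, from the locus of miR-191-5p, and miR-194-5p, which both duplicated clusters encode, had nearly equal TPM in both. Members reduced over 1.5-fold, on TPM + 0.1, numbered 3 of 7, namely miR-191-5p, miR-191-3p and miR-425-3p. Over all miRNAs above 1.5 TPM, 252 of 607 (41.5%) were reduced by this rule, so the members' share lay near the background. After scaling by the median ratio or by TMM factors, 0 members were reduced over 1.5-fold, against 31.5% and 32.5% of all miRNAs above the minimum. None of the 7 members was raised over 1.5-fold, against 96 of the 607 miRNAs (15.8%). An exact binomial test of the reads, given the library totals and adjusted by the Benjamini-Hochberg method over all 1096 miRNAs, put 2 of the 11 members below an adjusted p of 0.05, both lower in shMov10 SPCs. Over all miRNAs, 235 (21.4%) were lower and 117 (10.7%) higher by this test, and 0 of the 11 members were higher. What is compared in this way is a pair of libraries, not the conditions behind them, and both the p-values and the intervals reflect counting error alone. In bulk RNA, fewer cells of a type and less RNA per cell cannot be told apart.

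**Figure D1:**
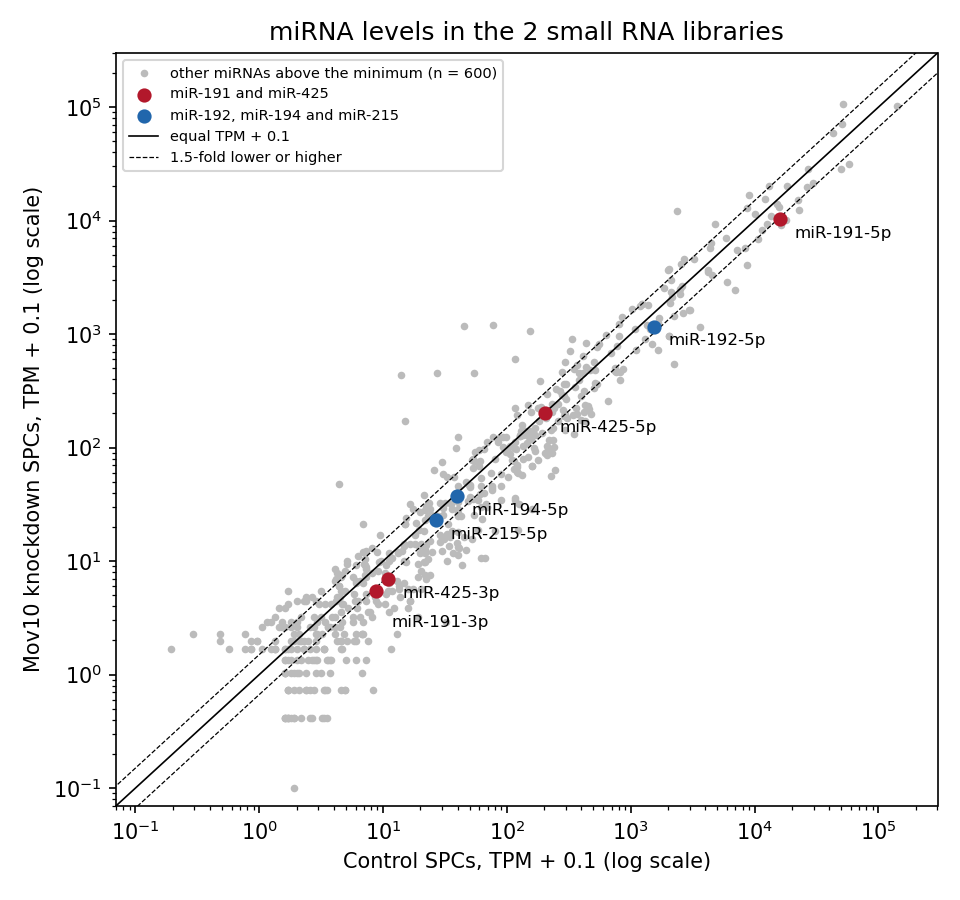
Levels of the 607 miRNAs above 1.5 TPM in the shVector (control) library on the x axis and the shMov10 (*Mov10* knockdown) library on the y axis, as TPM + 0.1 on log scales, with 1 point per miRNA and 1 library per group. The solid line marks equal levels and the dashed lines 1.5-fold differences, and miR-191-5p lies just past the lower dashed line while miR-425-5p and miR-194-5p lie next to the solid line.

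miR-191-5p, the main product of its hairpin, had 170032 reads in the shVector library and 32868 in the shMov10 library. Its level was 16165 TPM in shVector SPCs and 10289 TPM in shMov10 SPCs. It ranked 15th of all miRNAs by reads in shVector SPCs and 22nd in shMov10 SPCs, and was the most abundant member in both. This gave a log2 fold change of -0.65 (95% exact confidence interval -0.67 to -0.63) for miR-191-5p, and the log10 of its adjusted p in the exact binomial test was -1348. Every scaling tried left it lower in shMov10 SPCs, but the log2 fold change was -0.40 with the median ratio and -0.43 with TMM factors, and both are less than 1.5-fold.

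miR-425-5p, the main product of the neighbouring hairpin, had 2137 reads in shVector SPCs and 645 in shMov10 SPCs. Its level was 203.2 TPM in shVector SPCs and 201.9 TPM in shMov10 SPCs, so that the libraries differed by less than counting error. On the log2 scale the fold change of miR-425-5p was -0.01 (95% exact confidence interval -0.14 to 0.12, adjusted p = 1, exact binomial test). The sign of this value depended on the scaling, and it was 0.24 after scaling by the median ratio (adjusted p = 9.14e-04, exact binomial test) and 0.21 with TMM factors (adjusted p = 0.00549, exact binomial test).

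Because both miRNAs were counted in the same libraries, their ratio needs no library total. miR-425-5p made up 1.24% of the reads of miR-425-5p and miR-191-5p in shVector SPCs (95% Wilson confidence interval 1.19 to 1.29%). In shMov10 SPCs it made up 1.92% (1.78 to 2.08%). The share of miR-425-5p was thus higher in shMov10 SPCs, with an odds ratio of 1.56 (95% exact confidence interval 1.43 to 1.71, adjusted p = 1.05e-20, two-sided Fisher's exact test, adjusted over 3 pairs). For each miR-425-5p read there were 79.6 reads of miR-191-5p in shVector SPCs and 51.0 in shMov10 SPCs. Outside the members, no shares of neighbouring miRNAs were computed, so whether such a shift is particular to this locus was not tested.

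The 3p forms of these hairpins were far less abundant. miR-191-3p had 92 reads in shVector SPCs and 17 in shMov10 SPCs, or 8.75 and 5.32 TPM. miR-425-3p had 115 reads in shVector SPCs and 22 in shMov10 SPCs, or 10.9 and 6.89 TPM. Both were lower in shMov10 SPCs by more than 1.5-fold, but with so few reads neither was separated from counting error. The log2 fold change of miR-191-3p was -0.71 (95% exact confidence interval -1.56 to 0.04, adjusted p = 0.182, exact binomial test). That of miR-425-3p was -0.66 (-1.40 to 0.00, adjusted p = 0.125, exact binomial test). miR-425-3p made up 55.6% of the reads of both 3p forms in shVector SPCs (95% Wilson confidence interval 48.7 to 62.2%) and 56.4% in shMov10 SPCs (41.0 to 70.7%). The odds ratio of this comparison, which was chosen after the values were seen, was 1.04 (95% exact confidence interval 0.49 to 2.21, unadjusted p = 1, two-sided Fisher's exact test). The interval includes both 1 and the odds ratio of the 5p forms, so at this depth a shift of that size on the 3p arms was not detectable.

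**Figure D2:**
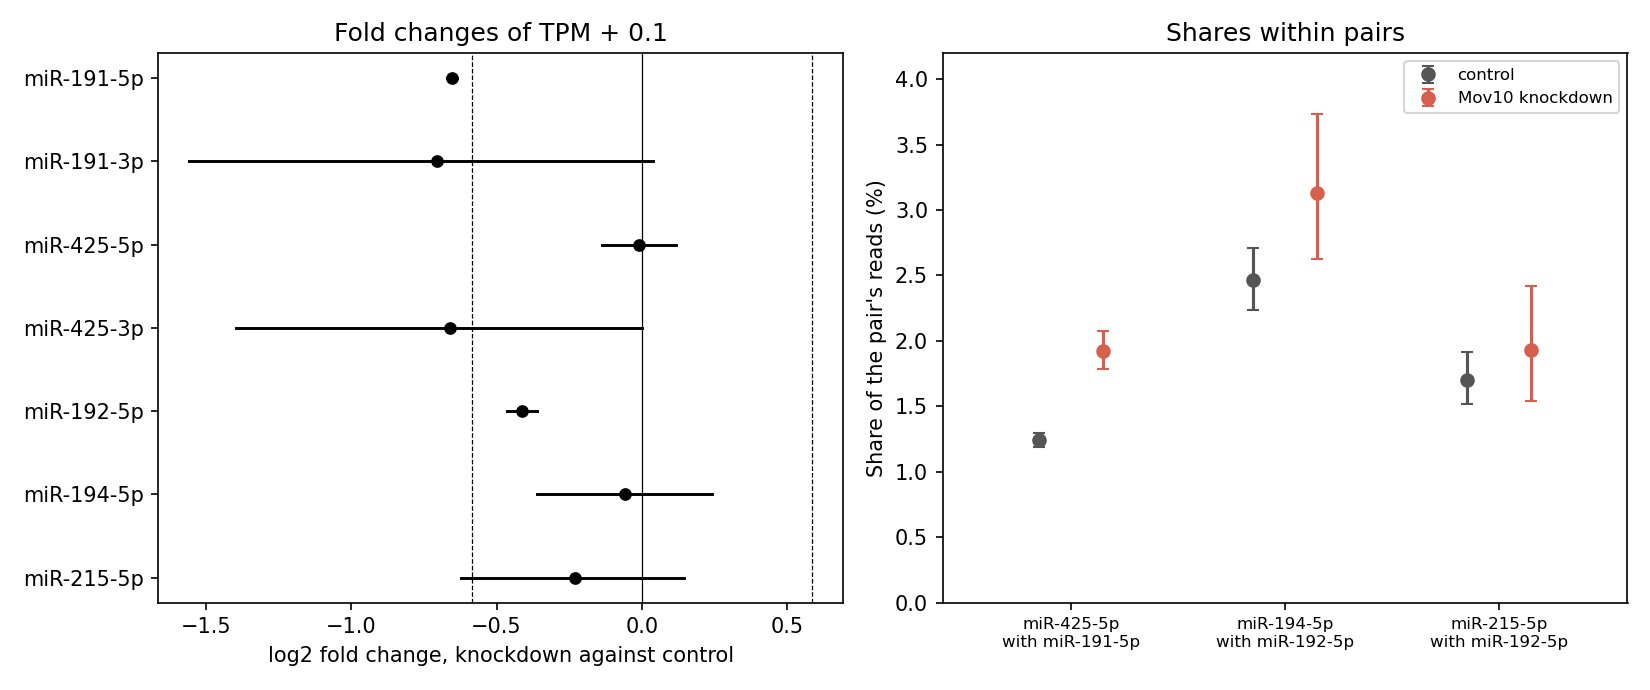
Left, log2 fold change of TPM + 0.1 (x axis) for the 7 members above 1.5 TPM, with bars for the 95% exact confidence intervals of the read ratio and dashed lines at 1.5-fold. Right, share in percent of the less abundant miRNA in each pair of 5p forms in the shVector (control) and shMov10 (*Mov10* knockdown) libraries, with 95% Wilson confidence intervals, where the share of miR-425-5p was 1.24% in shVector SPCs and 1.92% in shMov10 SPCs.

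The mature sequences of miR-191 and miR-425 follow, 5′ to 3′ as RNA, with the seed in capitals, because the comparison of this pair rests on them. They come from RefSeq (build GRCm38.p6), in which a sequence was found for 11 of the 11 members.
miR-191-5p: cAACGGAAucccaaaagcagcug
miR-191-3p: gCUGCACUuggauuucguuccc
miR-425-5p: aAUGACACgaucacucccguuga
miR-425-3p: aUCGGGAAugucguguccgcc
The seeds of these 4 forms differ from each other, and no other miRNA among the 908 of 1096 matched to a RefSeq sequence had any of them.

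The hairpin of miR-191 lies at chr9:108568319-108568392 and that of miR-425 at chr9:108568777-108568861 (GRCm38, plus strand), with 384 bases between them. Their sequences are given with the mature forms of both arms in capitals, to show where on each hairpin the counted reads come from.
Mir191: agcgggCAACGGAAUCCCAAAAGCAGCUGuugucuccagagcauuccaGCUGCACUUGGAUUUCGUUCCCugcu
Mir425: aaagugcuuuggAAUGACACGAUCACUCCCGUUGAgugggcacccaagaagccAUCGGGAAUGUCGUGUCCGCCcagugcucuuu
GENCODE vM21 places both hairpins in the single exon of the noncoding transcript 4833445I07Rik-201. In the shorter transcript 4833445I07Rik-202, only the Mir191 hairpin lies in the intron, and Mir425 starts after the transcript ends. In RefSeq both lie within the gene *Dalrd3*. Of its 9 annotated transcripts 8 span both hairpins, and Mir425 was in an exon in 8 of them, whereas Mir191 was in an exon in 7 and in an intron in 1. The annotation used here thus does not place both hairpins in an intron of any listed transcript. A miRNA gene of the opposite strand, Gm24083, overlaps Mir191.

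miR-192-5p, the most abundant member of the duplicated clusters, had 16268 reads in shVector SPCs and 3712 in shMov10 SPCs. Its level was 1547 TPM in shVector SPCs and 1162 TPM in shMov10 SPCs. It was lower in shMov10 SPCs by less than 1.5-fold and ranked 64th and 69th of all miRNAs. The log2 fold change of miR-192-5p was -0.41 (95% exact confidence interval -0.46 to -0.36, adjusted p = 8.75e-58, exact binomial test). It was below 0 under every scaling tried, but smaller with the median ratio (-0.16) and with TMM factors (-0.19).

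miR-194-5p, which shares both clusters with the other members, had 411 reads in shVector SPCs and 120 in shMov10 SPCs. Its level was 39.1 TPM in shVector SPCs and 37.6 TPM in shMov10 SPCs, a difference within counting error. Its log2 fold change was -0.06 (95% exact confidence interval -0.36 to 0.24, adjusted p = 1, exact binomial test), and its sign changed with the scaling.

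miR-215-5p, the paralogue of miR-192-5p, had 282 reads in shVector SPCs and 73 in shMov10 SPCs. Its level was 26.8 TPM in shVector SPCs and 22.9 TPM in shMov10 SPCs, which did not differ beyond counting error. For miR-215-5p the log2 fold change was -0.23 (95% exact confidence interval -0.62 to 0.15, adjusted p = 0.473, exact binomial test), and it turned to 0.02 after scaling by the median ratio.

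Both clusters encode miR-194-5p, and miR-192-5p and miR-215-5p come from different ones, so no share here compares products of a single cluster. Across the clusters, miR-194-5p made up 2.46% of the reads of miR-194-5p and miR-192-5p in shVector SPCs (95% Wilson confidence interval 2.24 to 2.71%). In shMov10 SPCs it made up 3.13% (2.63 to 3.73%). The intervals overlapped slightly, and the test of the difference gave an odds ratio of 1.28 (95% exact confidence interval 1.03 to 1.58, adjusted p = 0.0311, two-sided Fisher's exact test over 3 pairs). miR-215-5p made up 1.70% of the reads of miR-215-5p and miR-192-5p in shVector SPCs (1.52 to 1.91%) and 1.93% in shMov10 SPCs (1.54 to 2.42%). This difference was within counting error, with an odds ratio of 1.13 (0.86 to 1.48, adjusted p = 0.336, two-sided Fisher's exact test). In the pairs of miR-425 with miR-191 and of miR-194 with miR-192, the more abundant miRNA was thus the one whose share was smaller in the shMov10 library.

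The other 4 members had few reads. miR-194-2-3p had 9 reads in shVector SPCs and 3 in shMov10 SPCs, or 0.856 and 0.939 TPM, and its log2 fold change was 0.12 (95% exact confidence interval -2.39 to 2.14). miR-194-1-3p had 0 reads in shVector SPCs, which allows a level of up to 0.285 TPM, and 1 read in shMov10 SPCs. miR-192-3p had 1 read in shVector SPCs and 0 in shMov10 SPCs, which allows up to 0.939 TPM, and miR-215-3p had 1 read in each library. A change of these 3p forms was not detectable at this depth, and no fold change is given for miR-194-1-3p, miR-192-3p and miR-215-3p.

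The hairpins Mir194-2 (chr19:6264643-6264728) and Mir192 (chr19:6264844-6264932) lie on the plus strand of GRCm38 with 115 bases between them. GENCODE vM21 has no other gene over them, and the nearest one, *Atg2a*, ends 2308 bases before Mir194-2. Mir194-1 (chr1:185313319-185313385) and Mir215 (chr1:185313581-185313692) are 195 bases apart, also on the plus strand. They lie in introns of *Iars2*, which runs on the minus strand, and within the antisense transcript 2010103J01Rik-201, with Mir194-1 in its intron and Mir215 in its last exon.

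**Figure D3:**
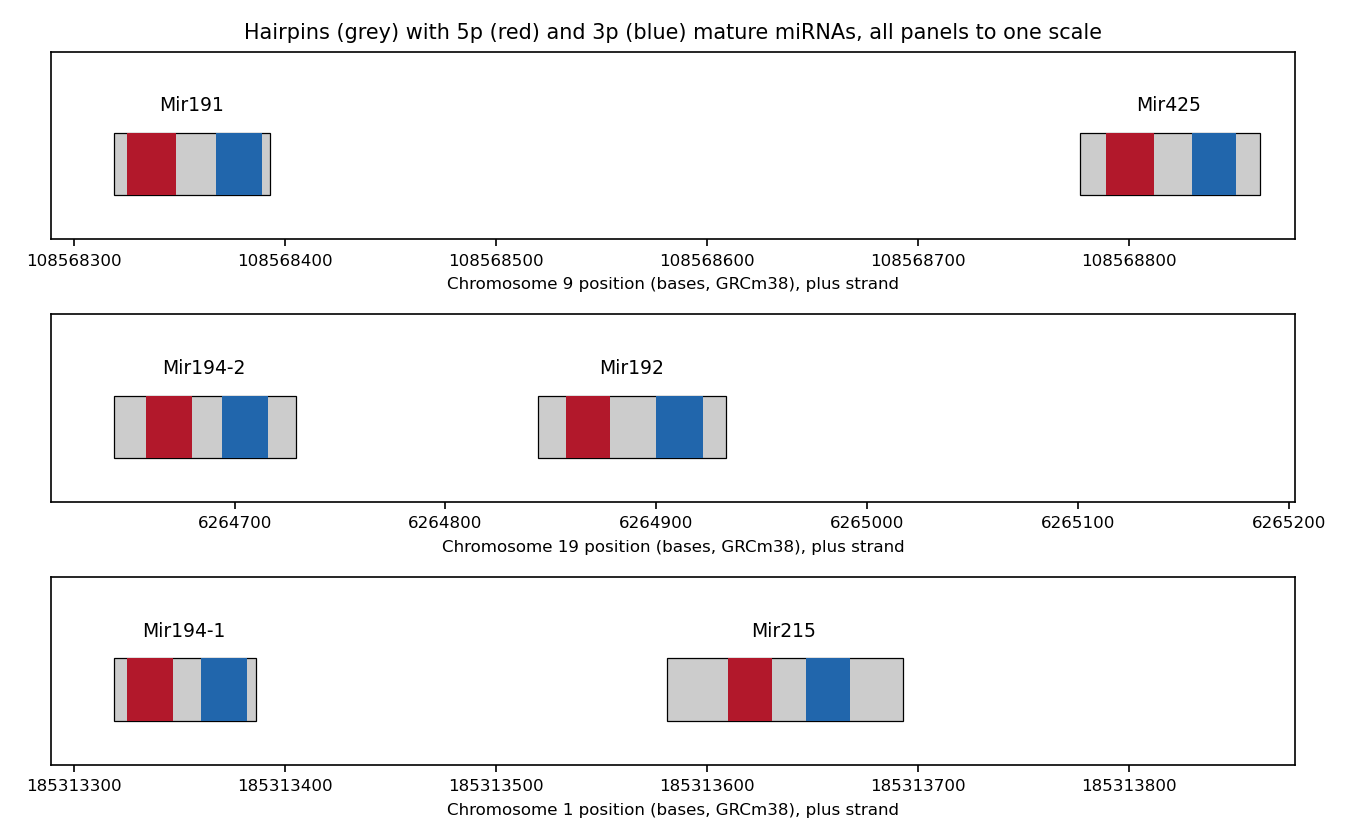
Maps of the 3 hairpin pairs on GRCm38, with the position in bases on the x axes and all panels on the same scale. Grey boxes are hairpins, red parts 5p and blue parts 3p mature miRNAs, and the gap between hairpins is 384 bases for Mir191 and Mir425, 115 for Mir194-2 and Mir192, and 195 for Mir194-1 and Mir215.

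miR-192-5p and miR-215-5p have the same seed, UGACCUA, and are printed with it in capitals because the 2 clusters can be told apart by them. They differ at 3 of 21 bases, all outside the seed (C1A, A12U and C20A), counted from the 5′ end and read from miR-192-5p to miR-215-5p.
miR-192-5p: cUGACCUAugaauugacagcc
miR-215-5p: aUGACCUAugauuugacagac
miR-194-5p: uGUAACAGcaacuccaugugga
The sequence of miR-194-5p is the same from Mir194-1 and Mir194-2, so its reads cannot be assigned to chromosome 1 or 19. The summed level of miR-192-5p and miR-215-5p, which carry 1 seed, was 1573 TPM in shVector SPCs and 1185 TPM in shMov10 SPCs. Of these reads, 98.3% in shVector SPCs and 98.1% in shMov10 SPCs were miR-192-5p, so the level of this seed followed that of miR-192-5p.

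The 3p forms of miR-194 do differ between the clusters, and here capitals mark the 4 of 22 bases that differ (G8A, U19C, C20U and G22C, from miR-194-2-3p to miR-194-1-3p).
miR-194-2-3p: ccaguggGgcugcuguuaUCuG
miR-194-1-3p: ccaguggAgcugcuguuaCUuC
Of the 3p reads of miR-194, 9 of 9 in shVector SPCs and 3 of 4 in shMov10 SPCs were those of miR-194-2-3p, from chromosome 19. Because one of the differing bases, at position 8, lies in the seed, these 3p forms do not share a seed. Among the miRNAs matched to a RefSeq sequence, the only one outside the members with a seed of a member was miR-6926-5p, which shares that of miR-194-2-3p and had 0 reads in shVector SPCs and 1 in shMov10 SPCs.

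The 5p arm gave nearly all reads of each miRNA in both libraries. Of the miR-191 reads, 99.95% were 5p in shVector SPCs and 99.95% in shMov10 SPCs. Of the miR-425 reads, 94.9% were 5p in shVector SPCs (95% Wilson confidence interval 93.9 to 95.7%) and 96.7% in shMov10 SPCs (95.1 to 97.8%). In shVector SPCs this was the lowest 5p share of the 5 miRNAs. Of the miR-192 reads, 99.99% were 5p in shVector SPCs and all 3712 were 5p in shMov10 SPCs, and a count of 0 allows a 3p share of up to 0.0808%. Of the miR-194 reads, with both 3p forms summed, 97.9% were 5p in shVector SPCs (96.0 to 98.9%) and 96.8% in shMov10 SPCs (92.0 to 98.7%). Of the miR-215 reads, 99.6% were 5p in shVector SPCs (98.0 to 99.9%) and 98.6% in shMov10 SPCs (92.7 to 99.8%). None of the 5p shares passed the test of a difference between the libraries, and the smallest adjusted p was 0.3, that of miR-425 (two-sided Fisher's exact test, adjusted over 5 miRNAs).

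By level, the order of the 7 members above 1.5 TPM was the same in both libraries, from miR-191-5p through miR-192-5p, miR-425-5p, miR-194-5p, miR-215-5p and miR-425-3p to miR-191-3p. Neighbours in this order had separate 95% Wilson confidence intervals in both libraries, except miR-425-3p and miR-191-3p, which overlapped in both. The 4 members of miR-191 and miR-425 summed to 16388 TPM in shVector SPCs and 10504 TPM in shMov10 SPCs, and the 7 of miR-192, miR-194 and miR-215 to 1614 and 1224 TPM. Both sums were lower in shMov10 SPCs, with log2 ratios of -0.64 and -0.40, and miR-191-5p alone gave 98.6% of the reads of the first in shVector SPCs.

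The miRNAs outside the members with the most similar pair of levels, by Euclidean distance in log2(TPM + 0.1) over the 2 libraries, were miR-148a-3p (distance 0.16) and miR-30d-5p (0.16) for miR-191-5p. Their log2 fold changes were -0.82 and -0.83. For miR-192-5p they were miR-340-5p (0.13) and miR-140-3p (0.13), with log2 fold changes of -0.39 and -0.40. For miR-425-5p they were miR-28a-5p (0.13) and miR-322-3p (0.14), with log2 fold changes of -0.04 and -0.17. For miR-194-5p they were miR-1983 (0.07) and miR-132-3p (0.20), with log2 fold changes of 0.04 and -0.29. The measure of likeness includes the fold change itself, so these values describe neighbours and test nothing.

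The members were set beside lists of other miRNAs, none of which was tested as a set. Calls of the exact binomial test given for a list are those of its single entries. The median log2 fold change of the 7 members above the minimum was -0.41 and that of all 607 miRNAs -0.37. Of the 607, 41.5% were reduced and 15.8% raised over 1.5-fold, and the counts of each list stand beside these shares. A list of miRNAs outside the members that come from introns of host genes had 18 entries, of which 14 were above the minimum, with a median of -0.07. Of these, 0 were reduced and 1 was raised over 1.5-fold. In the exact binomial test 6 of the 18 entries were lower and 4 higher, and the list summed to 43235 TPM in shVector SPCs and 32247 TPM in shMov10 SPCs, a log2 ratio of -0.42. Its most abundant entry, miR-26a-5p, had a log2 fold change of -0.58. All 8 of the hairpins of this list found in the RefSeq table lay in an intron of at least 1 transcript of a protein-coding gene on the same strand, and 2 of them, Mir26a-2 and Mir140, also overlapped an exon of other transcripts of that gene. The p53-responsive list, all 10 of whose entries were above the minimum, had 4 raised and 0 reduced and a median of 0.22. In the exact binomial test 5 of the 10 were higher and 0 lower. The raised miR-34a-3p, with 14 reads in shVector SPCs and 8 in shMov10 SPCs, did not pass it (adjusted p = 0.455). The most abundant entry of this list, miR-143-3p, had 18362 TPM in shVector SPCs and 20113 in shMov10 SPCs. miR-34b and miR-34c of this list are also known from male germ cells. miR-34b-5p had 338 TPM in shVector SPCs and 910 in shMov10 SPCs. miR-34c-5p had 9034 TPM in shVector SPCs and 16687 in shMov10 SPCs. Their 3p forms changed less, with log2 fold changes of 0.30 for miR-34b-3p and 0.14 for miR-34c-3p. Of the 5p forms of miR-192, miR-194 and miR-215, also known to respond to p53, that of miR-192 was lower in shMov10 SPCs and the others did not differ beyond counting error. Of the 13 entries of the epithelial list, 6 were above the minimum, 4 of them were reduced and 1 was raised, and the median was -0.96. In the exact binomial test 3 of the 13 were lower and 0 higher. Neither the reduced miR-429-3p (27 and 4 reads) nor the raised miR-122-5p (20 and 14 reads) passed it. miR-203-3p of this list, at 236 TPM in shVector SPCs and 117 in shMov10 SPCs, was its most abundant entry. These medians moved with the scaling, and that of the intron list turned to 0.18 with the median ratio and 0.15 with TMM factors, while that of the p53-responsive list turned to -1.50 with 1 common total for both libraries.

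Some markers of germ cells and of other cell types differed between the libraries as well. The feeder fibroblast list, with 16 of 16 entries above the minimum, summed to 173857 TPM in shVector SPCs and 269854 TPM in shMov10 SPCs. Of its entries 5 were raised and 0 reduced over 1.5-fold, 11 were higher and 1 lower in the exact binomial test, and the most abundant was miR-21a-5p. This miRNA is also known from SPCs and gave 57.4% of the rise of the sum in TPM, with 546601 reads (51967 TPM) in shVector SPCs and 341977 reads (107056 TPM) in shMov10 SPCs. Without both forms of miR-21a, an alternative added after seeing the data, the feeder list summed to 121564 TPM in shVector SPCs and 162091 TPM in shMov10 SPCs, with 3 of 14 entries raised and a median log2 fold change of 0.47. Much of this sum was miR-22-3p (50581 and 70511 TPM) and miR-10b-5p (43283 and 59217 TPM). The entries did not move alike, with log2 fold changes of 0.51 for miR-199a-3p and 0.13 for miR-143-3p. Of the 14 entries 3 were below 0, among them miR-214-3p (-0.42, adjusted p = 4.88e-17, exact binomial test). The germ and stem cell list, with 16 of 17 entries above the minimum, summed to 2154 TPM in shVector SPCs and 1330 TPM in shMov10 SPCs. Of these, 10 were reduced and 0 raised, and the most abundant was miR-292a-5p. All entries of this list are forms of miRNAs from a single cluster, miR-290 to miR-295, so its values describe 1 locus and not separate markers. Outside this list, miR-34b-5p and miR-34c-5p, known from male germ cells, were higher in shMov10 SPCs, with log2 fold changes of 1.43 and 0.89. Both forms of miR-871, a miRNA enriched in testis, were instead lower. The log2 fold change was -0.80 for miR-871-3p (49591 TPM in shVector SPCs and 28515 in shMov10 SPCs) and -0.43 for miR-871-5p. These miRNAs were picked after their values were seen and do not stand for germ cell miRNAs as a whole. The median log2 fold change was 0.49 for the feeder list and -0.74 for the germ and stem cell list, and that of the feeder list fell below 0 with 1 common total for both libraries. The methods name no blood cells in the cultures, which were set up from Thy1-selected cells. The blood cell list, with 3 of 6 entries above the minimum, summed to 176 TPM in shVector SPCs and 35.1 TPM in shMov10 SPCs, with 2 reduced and 0 raised entries and a median of -2.45. Both reduced entries come from the hairpin of miR-142a, and miR-142a-5p alone had 158 TPM in shVector SPCs and 28.8 TPM in shMov10 SPCs, so the sum mostly follows this hairpin. None of the other 4 entries, of miR-150, miR-223 and miR-451a, passed the exact binomial test, and for miR-150-5p, the only one of them above the minimum, the log2 fold change was -0.34 (adjusted p = 0.946). No entry of these 3 lists was at 0 reads in either library. The feeder and p53-responsive lists share 4 entries, those of miR-143 and miR-145a. The part of the cell mixture in the levels of miR-191-5p and miR-192-5p was not tested.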

How the data were processed

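The small RNA libraries of shVector and shMov10 SPCs were used, with 1 library in each group, and the RNA-seq and CLIP-seq samples of the series were not used here. The authors filtered rRNA reads, trimmed adaptors and matched the reads to miRBase without mismatches. The authors deposited a read count for each mature miRNA, without normalization, and the deposited TPM is that count per 1000000 reads of a library total. The totals, 10518277 and 3194363, were worked out here as reads divided by TPM, and what they contain is not given in the sources used here. Nor is it stated how a read that fits more than a single hairpin was counted. The shVector library was the deeper, with 3 reads equal to 0.285 TPM, against 0.939 TPM in the shMov10 library. Without molecular identifiers, intervals and floors cover counting error only.

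Fold changes used TPM + 0.1, which understates the change of low miRNAs. Members above 1.5 TPM in the higher library and changed over 1.5-fold were counted. Reads were tested with the exact conditional binomial test (two-sided, given both totals, Benjamini-Hochberg over all miRNAs, threshold 0.05). Arm and pair shares were compared by two-sided Fisher's exact tests, with 95% Wilson confidence intervals. Minima, pseudocounts, the fold threshold and the scaling (edgeR's TMM factors among others) were varied, and both arms were summed.

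The miRNAs named were all members, the 2 miRNAs outside them nearest in level to each of miR-191-5p, miR-425-5p, miR-192-5p and miR-194-5p, every miRNA sharing a seed with a member, and the entries of the lists of host-gene intron, p53-responsive, epithelial, feeder fibroblast, germ and stem cell and blood cell miRNAs. The members and lists were chosen with earlier results of these data known. From the lists, the most abundant entries were named. All other named entries, including the forms of miR-34b and miR-34c and miR-150-5p, were chosen after their values were seen. Both forms of miR-871, which are on no list, were chosen in the same way. Sequences and hairpin positions came from RefSeq (GRCm38.p6) and other genes from GENCODE vM21. Software was edgeR 4.0.16 in R 4.3.3, and scipy 1.17.1, pandas 2.3.3, numpy 2.4.6 and matplotlib 3.10.9 in Python 3.11.15.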

Additional observations from a re-analysis of the deposited data

How the results depend on the processing

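No paired analysis was possible because the groups hold a single library each. With the deposited totals, 3 members were reduced over 1.5-fold, 0 were raised and 2 passed the exact binomial test. A 2-fold threshold, the median ratio and TMM factors each left 0 members reduced, against 26.5, 31.5 and 32.5% of all miRNAs above the minimum. With 1 common total for both libraries, 7 members were reduced and 7 passed the test, by construction, since the log2 ratio of the totals is -1.72. Of all miRNAs above the minimum, 96.6% were reduced under this scaling, and in the test 607 of all 1096 were lower and 10 higher. Without a minimum 4 of 11 members were reduced, with miR-192-3p added, against 51.2% of all 1096 miRNAs, and 2 were raised, against 17.0% of all, miR-194-1-3p and miR-215-3p, and each of these 3 had at most 1 read per library. The other minima and pseudocounts and scaling by miRNA reads gave 2 or 3 reduced and 0 raised members. Under these settings 37.5 to 41.7% of all miRNAs above the minimum were reduced and 13.5 to 18.3% raised, so the reduced members lay near the background. The median ratio and TMM factors put 3 members past the binomial test, with miR-425-5p higher, and of all 1096 miRNAs 183 were lower and 169 higher with the median ratio, and 187 and 159 with TMM factors.

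Scaling moved all miRNAs together. The median over the 607 miRNAs shifted on the log2 scale by 0.25 with the median ratio, 0.22 with TMM factors and -1.63 with 1 common total. Of all miRNAs changed over 1.5-fold, 72.4% were reduced with the deposited totals, 57.0% with the median ratio, 57.7% with TMM factors and 98.2% with 1 common total. Among the binomial calls, 66.8% were lower, and 52.0, 54.0 and 98.4% under these scalings. miR-191-5p and miR-192-5p were lower and passed the test under each of them. The log2 fold change of miR-425-5p turned to 0.056 with scaling by miRNA reads, 0.24 with the median ratio and 0.21 with TMM factors, that of miR-194-5p to 0.0086, 0.19 and 0.16, and that of miR-215-5p to 0.022 with the median ratio, all of which follow from the construction of the scaling.

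Pair shares do not involve a library total. With both arms summed, the 3 pair shares had the same direction and the same side of the threshold, as did the 5p share of miR-194 with its 3p forms taken apart. The small number of 3p reads limits detection on that arm. List medians under other scalings, and the feeder list without miR-21a, were added after seeing the data.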
